A study of Homo sapiens with 4 samples.

Results

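ATOH8 peaks that lay deep inside protein-coding genes and away from TCF3 peaks were examined in DU145 cells, a line established from a human prostate carcinoma. The set was chosen by the position of the deposited peaks alone, and held the ATOH8 peaks on chromosomes 1 to 22 and X that shared no base with a TCF3 peak, had their midpoint inside a protein-coding gene and lay more than 5 kb from every end of such a gene. The rule selected 506 of 4951 ATOH8 peaks (10.2%, Wilson 95% interval 9.41 to 11.1%), and the lists of both factors together held 16281 peaks. Chromatin immunoprecipitation and sequencing (ChIP-seq) had been carried out for Flag-tagged ATOH8 and for Myc-tagged TCF3 in cells fixed with 1% formaldehyde for 10 min, with an input library for each factor. Each of the 4 groups had 1 library, so no value below has a replicate error and no test between groups was made. The input libraries were not analysed here. Peak positions do not measure expression, so the cell line label could not be checked against markers.

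ATOH8 is a basic helix-loop-helix (bHLH) transcription factor related to the proneural Atonal protein of the fly. TCF3 is an E protein, a broadly expressed bHLH class whose members pair with tissue-restricted bHLH factors. Such pairs bind a short DNA word, the E-box CANNTG. Many human genes have more than one promoter, so a stretch that is internal to the longest annotated form of a gene can be the start of a shorter transcript.

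Many of the peaks lay at such an internal start. RefSeq start windows, each of 300 bases around an annotated start, were used to ask this, and 422 of the 506 peaks had a host gene with at least 1 window. Of these, 159 overlapped a window of the host gene itself (37.7%, 33.2 to 42.4%). Among ATOH8 peaks at the same kind of place that did share a base with TCF3, 57 of 86 did so (66.3%, 55.8 to 75.4%). Among TCF3-only peaks deep inside genes the count was 149 of 1357 (11%, 9.43 to 12.8%). These intervals do not overlap. They treat peaks as independent, which peaks of 1 library are not. The lists also differ in length, with 4951 ATOH8 and 11330 TCF3 peaks. Among members above the ATOH8 list median by score the share was 49.2%, so list depth was not separated from the contrast with TCF3. Counted by starts, the ATOH8-only and the TCF3-only peaks each overlapped 182 internal starts. The internal starts were not part of the rule, which used only the outer ends of genes.

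The 159 peaks at internal starts covered 157 genes. In 126 of them the annotated start lay within 300 bp of the peak midpoint, with a median distance of 172 bp. The internal start was a median of 25.8 kb from the outer start of the gene. An ATOH8 peak also lay within 1 kb of the outer start of a host gene in 28 cases (17.6%, 12.5 to 24.3%), near the 19.0% of all genes longer than 10 kb with a known start. Within 1 kb of any annotated start, including those of other genes and of long non-coding RNA (lncRNA) genes, lay 200 of the 422 peaks (47.4%, 42.7 to 52.2%), against 260 of 1357 TCF3-only peaks (19.2%, 17.2 to 21.3%).

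**Figure D1:**
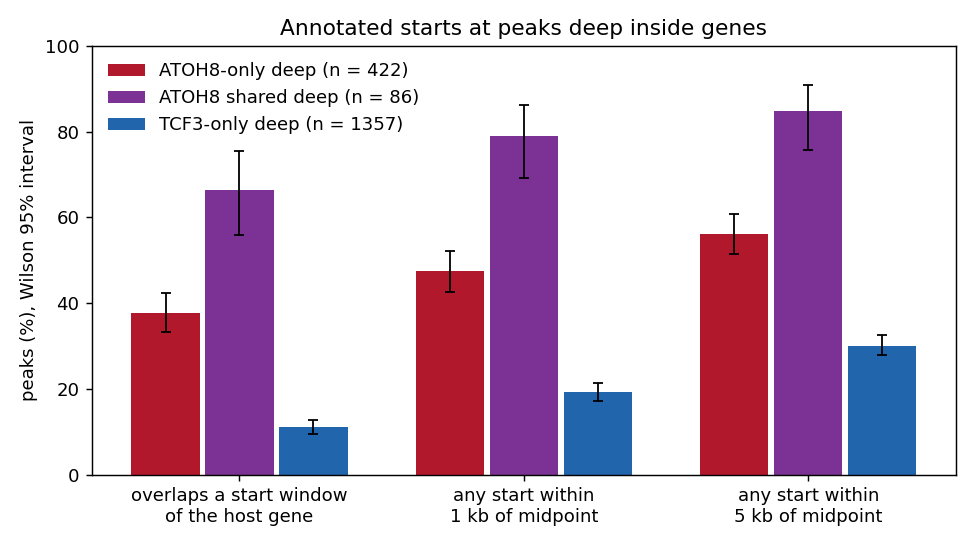
Share of peaks deep inside genes (y axis, percent, with Wilson 95% intervals) that overlap a start window of their host gene or lie near any annotated start, for ATOH8-only, shared ATOH8 and TCF3-only peaks whose host gene had a start window. The ATOH8-only bars (37.7, 47.4 and 56.2%) lie between those of the shared peaks and those of the TCF3-only peaks.

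The start windows below are shown because they lie wholly inside the highest-scoring peaks at internal starts. The last 2, at SLC3A2 and APC, are shown for the ferroptosis and WNT genes described further on. All are RefSeq sequences on GRCh38.p14, 5′ to 3′ on the strand of the gene. Capitals mark every base of a match to CANNTG or to the GC box GGGCGG on either strand (CCGCCC on the other). Matches can overlap, so a run of capitals may hold several.

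EXOC6 (chr10:92848270-92848569, plus strand): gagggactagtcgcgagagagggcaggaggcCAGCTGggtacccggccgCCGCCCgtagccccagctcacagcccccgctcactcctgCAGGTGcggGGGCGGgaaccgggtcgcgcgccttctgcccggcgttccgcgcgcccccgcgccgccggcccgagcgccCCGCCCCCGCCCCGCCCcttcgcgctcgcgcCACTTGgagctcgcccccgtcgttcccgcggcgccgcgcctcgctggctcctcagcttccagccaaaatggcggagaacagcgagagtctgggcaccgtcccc
ANXA4 (chr2:69741884-69742183, plus strand): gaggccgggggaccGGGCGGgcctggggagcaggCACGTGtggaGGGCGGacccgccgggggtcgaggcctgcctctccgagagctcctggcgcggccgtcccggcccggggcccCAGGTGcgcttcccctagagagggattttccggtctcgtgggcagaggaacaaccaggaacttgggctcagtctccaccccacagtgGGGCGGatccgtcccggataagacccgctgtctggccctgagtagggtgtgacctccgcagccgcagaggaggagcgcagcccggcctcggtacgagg
AHCY (chr20:34302941-34303240, minus strand): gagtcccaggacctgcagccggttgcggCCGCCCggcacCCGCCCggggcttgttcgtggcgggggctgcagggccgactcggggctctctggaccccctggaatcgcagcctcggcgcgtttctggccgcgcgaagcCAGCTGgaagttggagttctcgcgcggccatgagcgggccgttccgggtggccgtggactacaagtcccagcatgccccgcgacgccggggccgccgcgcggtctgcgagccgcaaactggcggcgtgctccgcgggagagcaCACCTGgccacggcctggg
SHTN1 (chr10:117005138-117005437, minus strand): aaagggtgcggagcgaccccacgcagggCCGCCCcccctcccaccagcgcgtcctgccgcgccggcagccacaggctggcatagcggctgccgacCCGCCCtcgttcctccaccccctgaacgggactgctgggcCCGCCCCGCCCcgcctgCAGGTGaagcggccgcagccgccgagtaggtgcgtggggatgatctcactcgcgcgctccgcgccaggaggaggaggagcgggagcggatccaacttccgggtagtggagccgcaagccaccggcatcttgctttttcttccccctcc
UACA (chr15:70763509-70763808, minus strand): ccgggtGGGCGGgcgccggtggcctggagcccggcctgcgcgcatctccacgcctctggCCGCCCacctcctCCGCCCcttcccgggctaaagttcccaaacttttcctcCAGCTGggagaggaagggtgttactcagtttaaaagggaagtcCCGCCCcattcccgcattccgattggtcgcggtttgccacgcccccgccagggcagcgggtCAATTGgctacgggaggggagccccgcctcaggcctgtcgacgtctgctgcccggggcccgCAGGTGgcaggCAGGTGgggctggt
MGAT1 (chr5:180802757-180803056, minus strand): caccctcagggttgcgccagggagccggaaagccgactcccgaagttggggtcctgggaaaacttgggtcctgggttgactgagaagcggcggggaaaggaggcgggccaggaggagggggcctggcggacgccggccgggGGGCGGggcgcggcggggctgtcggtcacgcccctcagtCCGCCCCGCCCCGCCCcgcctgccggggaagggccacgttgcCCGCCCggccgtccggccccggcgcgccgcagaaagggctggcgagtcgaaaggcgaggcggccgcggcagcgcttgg
SLC3A2 (chr11:62880646-62880945, plus strand): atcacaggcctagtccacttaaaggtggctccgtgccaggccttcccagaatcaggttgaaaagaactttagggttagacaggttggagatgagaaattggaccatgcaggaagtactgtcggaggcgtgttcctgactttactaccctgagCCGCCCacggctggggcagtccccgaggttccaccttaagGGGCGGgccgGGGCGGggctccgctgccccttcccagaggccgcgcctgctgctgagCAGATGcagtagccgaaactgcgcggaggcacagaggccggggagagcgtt
APC (chr5:112737635-112737934, plus strand): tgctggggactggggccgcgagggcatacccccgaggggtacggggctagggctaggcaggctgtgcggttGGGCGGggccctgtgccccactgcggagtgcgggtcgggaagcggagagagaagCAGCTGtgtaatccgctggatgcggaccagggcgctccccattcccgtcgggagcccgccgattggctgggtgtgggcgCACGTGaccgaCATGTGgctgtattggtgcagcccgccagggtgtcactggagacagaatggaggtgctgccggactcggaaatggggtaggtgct

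The highest of all 506 peaks, with a score of 1430, lay at the internal start of EXOC6, a gene for a subunit of the exocyst that tethers secretory vesicles. It ran from 92848170 to 92849497 on chromosome 10, and its start lay 21.7 kb inside the gene. Its nearest TCF3 peak was 155 kb away. The window shown above holds 3 E-boxes and 5 GC boxes, and 77.0% of its bases are G or C. No other peak of the set came near this score, since the next had a score of 356. The lists appear to be held only in part. The ATOH8 list has 3 lines without a peak and no score between 996 and 356, between 326 and 280 or between 232 and 189. The TCF3 list has 5 lines without a peak and no score between 887 and 280. A TCF3 peak missing from the list would leave an ATOH8 peak counted as ATOH8-only, lengthen the gap to TCF3 and lower the TCF3 counts below.

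At the internal start of ANXA4, an annexin that binds membranes in the presence of calcium, 98.3 kb from the outer start, the peak had a score of 344. Another at AHCY, the enzyme that splits S-adenosylhomocysteine, had a score of 329. Peaks at SHTN1, a neuronal polarity gene, and at UACA both had a score of 269. MGAT1, which encodes the enzyme that opens the synthesis of complex N-glycans, held a pair of them, both at internal starts, with scores of 258 and 146. The windows at AHCY, SHTN1 and UACA hold 2, 1 and 4 E-boxes, and the higher-scoring one at MGAT1 holds 0. A CANNTG match was thus present in the start window of most, not all, of these peaks. The rest of each peak was not searched.

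Of the 15 highest-scoring peaks, 8 overlapped an internal start of the host gene. Besides those above, they were the peaks at SH3TC1 (score 333) and AKAP19 (score 253). The other 7 lay in BCL9L (356), CECR2, a bromodomain chromatin factor (355), AHDC1 (349), OTOF, which encodes the calcium sensor otoferlin (349), SCNN1A, a subunit of the epithelial sodium channel (279), AHNAK2 (268) and TNKS1BP1 (249). BCL9L, SCNN1A and TNKS1BP1 had no start window. In CECR2 the peak lay 9.34 kb from the start of the gene, and in OTOF it lay 55.4 kb from it, close to the middle.

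Peaks at internal starts also had higher scores within the set. Their scores ran from 52 to 1430 with a median of 92 and quartiles of 68 and 127. The 249 peaks whose host had a window but which overlapped neither a host start nor a lncRNA start ran from 51 to 355, with a median of 72. Above the median of the whole ATOH8 list, 84, were 93 of the 159 (58.5%, 50.7 to 65.9%) and 89 of the 249 (35.7%, lower bound 30% and upper bound 41.9%). The peaks at internal starts were also wider, with a median of 724 bp against 536 bp, and width was not separated from score. A further 17 peaks overlapped only a lncRNA start (median score 68), and 81 had neither a host window nor a lncRNA start (median score 73).

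**Figure D2:**
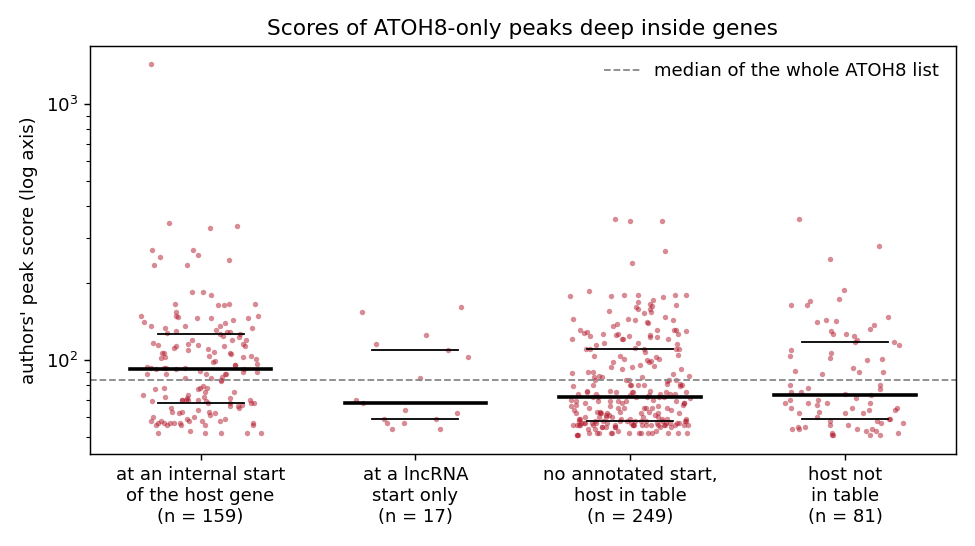
Authors' score of each ATOH8-only peak deep inside a gene (y axis, log scale) in 4 groups by annotated start; points are peaks, long bars medians and short bars quartiles, and the dashed line is the median of the whole ATOH8 list. Peaks at an internal start of the host gene have a median of 92, the only one of the 4 above the dashed line at 84.

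As a whole the 506 peaks had a median score of 75.5 and a median width of 619 bp. The other ATOH8 classes had medians of 79.5 and 821.5 bp for the 100 shared peaks deep inside genes, 85 and 679 bp for the 2539 ATOH8-only peaks at gene ends, and 78 and 577 bp for the 481 ATOH8-only peaks between genes. Scores above the list median were found for 43.9% of the set (39.6 to 48.2%) and 50.3% of the gene-end peaks (48.3 to 52.2%). Above 163, the score that 10% of the list reached, the shares were 8.70% (6.54 to 11.5%) and 9.77% (8.67 to 11%), and these intervals overlap.

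The letters of the windows were compared next, to see what the internal starts shared beyond the rule. The deep territory of all genes held 3327 annotated internal starts, of which 182 overlapped a peak of the set (5.47%) and another 182 a TCF3-only peak (5.47%). The 182 in ATOH8-only peaks had a median G and C content of 69.3%, and those in TCF3-only peaks 70.3%. The 2889 in no peak deep inside a gene had 51.7%. GGGCGG occurred on either strand in 74.7% of the windows in ATOH8-only peaks (67.9 to 80.5%), in 73.6% of those in TCF3-only peaks (66.8 to 79.5%) and in 29.9% of the rest (28.3 to 31.6%). In G and C content and in GC boxes the windows under the 2 factors differed by little, and both were higher than the other starts.

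At these internal starts, E-box letters differed between the ATOH8-only and the TCF3-only windows. For most of the words in this paragraph the windows in shared ATOH8 peaks were closer to the TCF3-only ones. The exception was the word present in 9.21% of shared, 12.6% of ATOH8-only and 2.20% of TCF3-only windows. CANNTG was present in 128 of 182 windows in ATOH8-only peaks (70.3%, 63.3 to 76.5%), against 93 of 182 in TCF3-only peaks (51.1%, 43.9 to 58.3%) and 74.4% of starts in neither (72.8 to 75.9%). Over all 3327 internal starts the share was 72.5%, so the ATOH8 share was near the background and the TCF3 share lay below it. The form CAGCTG was present in 30.2% (24 to 37.2%) of windows in ATOH8-only peaks, 14.3% (9.94 to 20.1%) of those in TCF3-only peaks and 20.6% (19.2 to 22.1%) of the rest. CACGTG was present in 12.6% (8.57 to 18.2%), 2.20% (0.858 to 5.51%) and 5.19% (4.44 to 6.06%). CACCTG, read on both strands, was present in 30.2% (24 to 37.2%), 19.8% (14.6 to 26.2%) and 19.3% (17.9 to 20.8%). All 3 words are forms of CANNTG and so are counted in it as well. In the 76 windows in shared ATOH8 peaks CANNTG was present in 53.9% (42.8 to 64.7%), CAGCTG in 18.4% (11.3 to 28.6%), CACGTG in 9.21% (4.53 to 17.8%) and CACCTG in 22.4% (14.5 to 32.9%). Each of these intervals overlaps that of the set. Start windows of all genes in ATOH8-only peaks at gene ends, 2214 of them, had 63.9, 23.7, 10.8 and 27.5%, in the same order. Start windows of non-coding genes did not show the contrast between ATOH8-only and TCF3-only peaks deep inside genes. There CANNTG was present in 67.5% of 40 windows (52.0 to 79.9%) and in 67.0% of 103 (57.4 to 75.3%). CAGCTG was at 22.5 and 19.4%, CACCTG at 32.5 and 31.1%, and CACGTG at 2.5 and 7.77%. Whether the E-box counts of the set hold for ATOH8 peaks in general was not tested.

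CATATG and CAGATG, other forms of the E-box, were most common in the starts with no peak. The first was found in 0 of 182 windows in ATOH8-only peaks, which allows a share of up to 2.07% by the Wilson interval, in 0.549% of those in TCF3-only peaks and in 3.95% of the rest. CAGATG was found in 13.2% (9.02 to 18.9%), 7.69% (4.64 to 12.5%) and 18.0% (16.6 to 19.4%), and the first and last of these intervals overlap. In shared ATOH8 windows CATATG was found in 1.32% (0.233 to 7.08%) and CAGATG in 2.63% (0.725 to 9.1%). The AP-1 word TGANTCA was found in 3.85% of windows in ATOH8-only peaks, 2.63% in shared peaks, 2.75% in TCF3-only peaks and 10.9% of the rest. The GATA word AGATAA was found in 2.75%, 1.32%, 0% and 13.5%, and the ETS word CCGGAA in 22%, 23.7%, 17.0% and 10.2%, in the same order. For these 3 words the windows in peaks of every class lay on the same side of the starts with no peak. In these comparisons the G and C content differed as well, and its part in the word counts was not tested. Windows of 1 gene can overlap, so they are not independent, and a match is not a binding site.

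**Figure D3:**
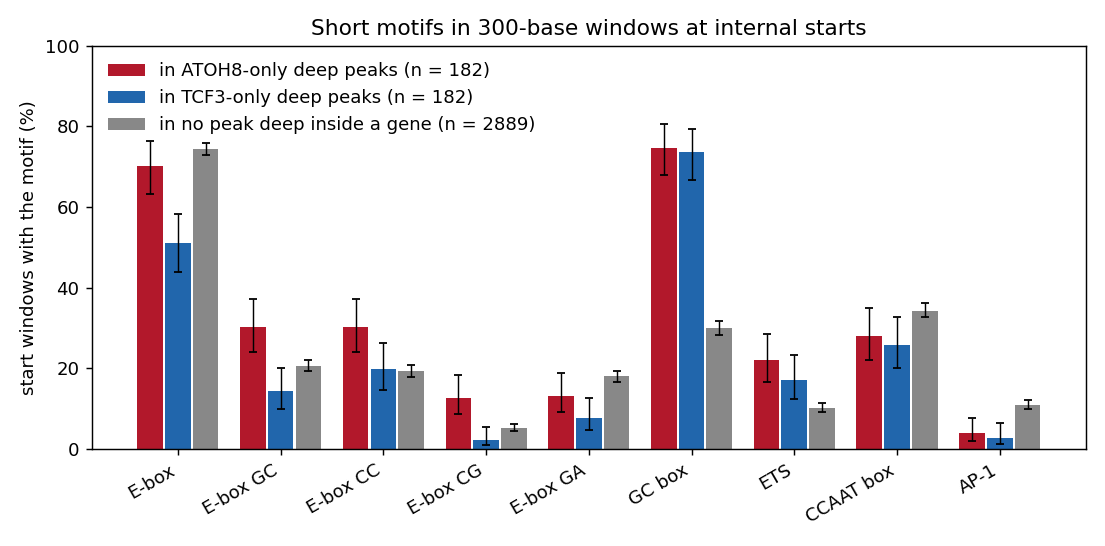
Share of 300-base windows at internal starts (y axis, percent, with Wilson 95% intervals) that hold each short motif, for windows in ATOH8-only peaks, in TCF3-only peaks and in no peak deep inside a gene; the E-box labels add the inner letters of each form, as in E-box CG for CACGTG. GC boxes are at 74.7 and 73.6% in the first 2 groups, while CACGTG is at 12.6% in the ATOH8-only windows and at 2.20% in the TCF3-only windows.

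The peaks lay in 472 genes, of which 433 held 1 peak, 34 held 2 and 5 held 3 or more. Only genes longer than 10 kb can hold one, and 3.30% of 14316 such genes did, while 8.05% held a TCF3-only peak deep inside. The host genes had a median length of 82.3 kb against 42.1 kb for all genes longer than 10 kb. The share of genes with a peak was 1.80% at 10 to 50 kb, 4.23% at 50 to 100 kb, 5.01% at 100 to 200 kb and 7.59% over 200 kb. Per base the order was the reverse. Genes of those 4 classes held 13.5, 8.08, 4.28 and 2.05 peaks per 10 Mb of deep territory. TCF3-only peaks went down less steeply, with 27.9, 16.2, 14.7 and 13.8 per 10 Mb. Genes that overlap are counted apart in these densities.

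**Figure D4:**
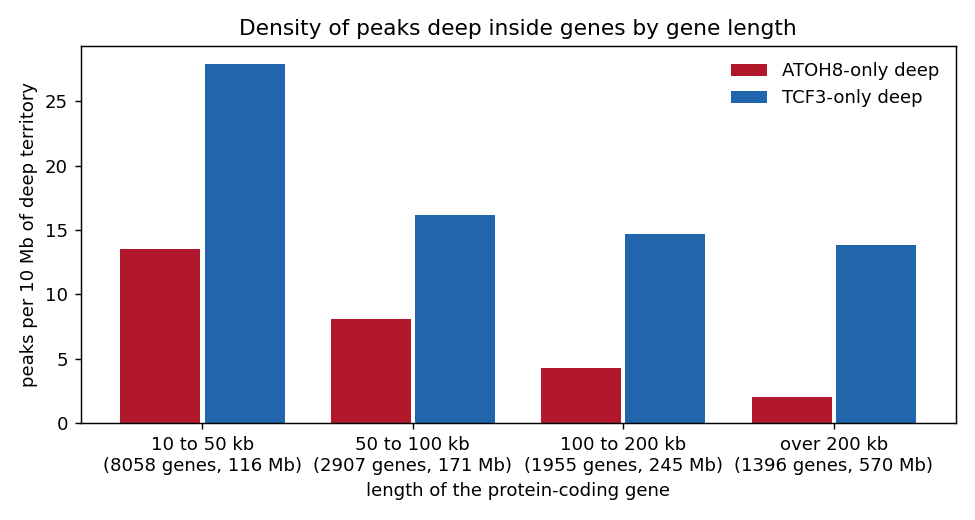
Peaks per 10 Mb of deep territory (y axis) in protein-coding genes of 4 length classes, for ATOH8-only and TCF3-only peaks deep inside genes. The ATOH8-only density is 13.5 in genes of 10 to 50 kb and 2.05 in genes over 200 kb, where the TCF3-only densities are 27.9 and 13.8.

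SLC12A7, a potassium-chloride cotransporter gene on chromosome 5, held 4 of the peaks, the most of any gene, with scores of 90, 67, 60 and 57, and the one with 67 overlapped an internal start. It also held 4 TCF3 peaks in its body. DAB2IP, a Ras GTPase-activating protein gene studied as a tumour suppressor in the prostate, held 3, with scores of 180, 162 and 92. The one with score 92 overlapped an internal start, 84.6 kb from the outer start. SLC16A3, which encodes the lactate exporter MCT4, is 22.2 kb long and held 3 with scores of 88, 66 and 63, and those with 88 and 63 overlapped internal starts. PLEC, the gene of the cytoskeletal linker plectin, held 3 with scores of 130, 110 and 55. The predicted gene LOC124905135 held 3, with scores of 68, 68 and 54, and a TCF3 peak lay 1.11 kb from one of those with 68 and 1.24 kb from the one with 54. Another ATOH8 peak lay within 10 kb of 86 of the 506 (17.0%, 14 to 20.5%), against 16.5% of the ATOH8-only peaks at gene ends (15.1 to 18.0%).

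Along the host gene the peaks leaned towards its start. In 421 cases the orientation of the longest host gene was known, and 237 lay nearer to its start than to its end (56.3%, 51.5 to 61.0%). Shared ATOH8 peaks deep inside genes did so in 58 of 86 cases (67.4%, 57.0 to 76.4%) and TCF3-only peaks in 640 of 1357 (47.2%, 44.5 to 49.8%). When the gene without its outer 5 kb was split into 10 equal bins, the one next to the start held 15.7% of the set (12.5 to 19.5%) and the one next to the end held 7.60% (5.44 to 10.5%). The order was not even in between, since bin 6 held 14% (11 to 17.7%). Peaks at internal starts lay nearer to the start in 99 of 159 cases (62.3%, 54.5 to 69.4%) and the other peaks in 138 of 262 (52.7%, 46.6 to 58.6%). The median distance from the outer start was 27.7 kb for the set, 34.8 kb for the shared peaks and 73.9 kb for the TCF3-only peaks. Gene length was not separated from it. The distance to the nearest gene end also differed, with medians of 17.0 kb for the set and 31.0 kb for the TCF3-only peaks.

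**Figure D5:**
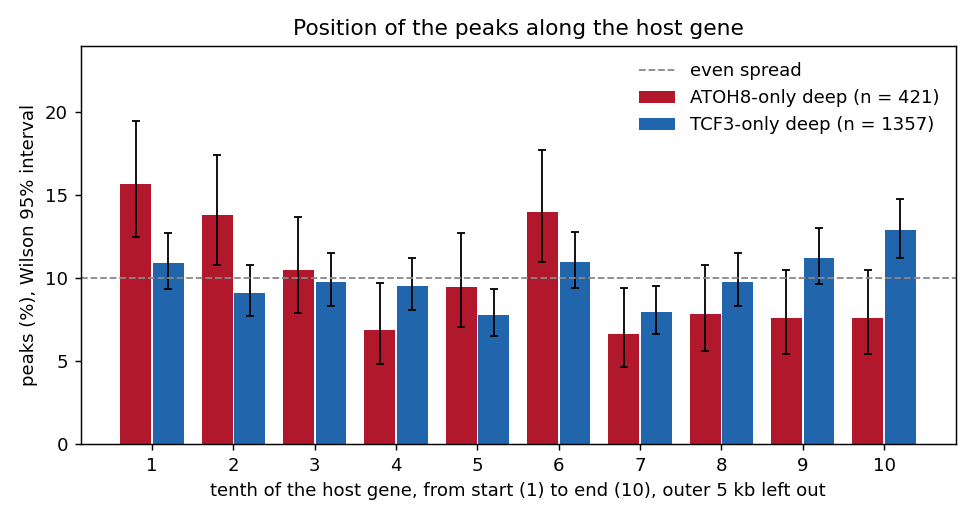
Share of peaks (y axis, percent, with Wilson 95% intervals) in each of 10 equal bins of the host gene from its start to its end, without the outer 5 kb on each side, for ATOH8-only and TCF3-only peaks deep inside genes; the dashed line marks an even spread. Bin 1 holds 15.7% and bin 10 holds 7.60% of the ATOH8-only peaks, against 10.9 and 12.9% of the TCF3-only peaks.

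By chromosome the density was highest on 19, with 38 peaks or 19.5 per 10 Mb of deep territory, followed by 22 (10.5) and 17 (10.2). It was lowest on X (0.455) and 13 (0.664), with 2 peaks each. TCF3-only peaks had 22.6 per 10 Mb on chromosome 19, 23 on 22, 28.3 on 17, 0.911 on X and 5.32 on 13. Over all these chromosomes the density was 4.67 for the set and 15.7 for TCF3-only peaks. Chromosome 19 was thus the highest for the ATOH8-only peaks and in the upper range for TCF3-only peaks, of which chromosome 21 had the most (33.4).

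The presence of TCF3 elsewhere in the host gene was also counted, since the rule excluded it only at the peak. The nearest TCF3 peak was between 50 bp and 3120 kb away, with a median of 62.1 kb. It lay within 1 kb of 13 of the 506 peaks (2.57%, 1.51 to 4.35%) and within 10 kb of 66 (13.0%, 10.4 to 16.3%). Within 10 kb of TCF3 lay 15.1% of the ATOH8-only peaks at gene ends (13.7 to 16.5%) and 15.8% of those between genes (12.8 to 19.3%), and these intervals overlap that of the set. A TCF3 peak lay somewhere in the body of 185 of the 472 host genes (39.2%, 34.9 to 43.7%), against 27.2% of the other genes longer than 10 kb (26.5 to 28%). The share over all such genes was 27.6%. By gene length the intervals separated in 1 of 4 classes. At 10 to 50 kb the share was 31.0% of hosts (24.1 to 39.0%) and 21.3% of other genes (20.4 to 22.2%). It was 37.4% of hosts (29.4 to 46.2%) and 29.3% of other genes (27.7 to 31.1%) at 50 to 100 kb, and 36.7% (27.9 to 46.6%) and 36.6% (34.5 to 38.8%) at 100 to 200 kb. Over 200 kb it was 54.7% of hosts (45.2 to 63.9%) and 45.6% of other genes (42.9 to 48.3%). At the outer start of the gene the intervals of hosts and other genes overlapped. An ATOH8 peak lay within 1 kb of that start in 79 of 390 hosts of known orientation (20.3%, 16.6 to 24.5%) and in 18.9% of other genes (18.2 to 19.6%), with 19.0% over all. A TCF3 peak did so in 57 hosts (14.6%, 11.5 to 18.5%) and in 18.7% of other genes (18.0 to 19.4%), with 18.5% over all.

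At the edges of the rule, peaks 5014, 5033 and 5073 bp from a gene end were members, in MGAT1, SIN3A and VPS9D1. Peaks 4984, 4977 and 4961 bp from one, in ATOSB, KBTBD11 and UNC13A, were not. The smallest gaps to a TCF3 peak among members were 50 bp in RBPJ, 58 bp in SETD1B and 167 bp in LUZP1. The smallest overlaps that excluded a peak were 143 bp in TNFRSF19, 144 bp in NAV2 and 155 bp in FOXN3. The peak in RBPJ, the DNA-binding protein of Notch signalling, lay at an internal start and had a score of 116.

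Some of the peaks lay beside non-coding genes, whose ends the rule did not use. An end of a non-coding gene was within 1 kb of the midpoint in 68 of 506 (13.4%, 10.7 to 16.7%), 57 of them beside lncRNA genes. The shares were 35% (26.4 to 44.7%) for shared ATOH8 peaks deep inside genes, 32.4% (28.4 to 36.7%) for ATOH8-only peaks between genes and 29.0% (26.9 to 31.2%) for TCF3-only peaks deep inside genes. For ATOH8-only peaks at gene ends it was 20.2% (18.7 to 21.8%). Pseudogenes were the nearest such gene for 1 of the 506 (0.198%, 0.0349 to 1.11%), with 2 more beside transcribed pseudogenes and 1 beside a V segment pseudogene, against 259 of the 1701 TCF3-only peaks (15.2%, 13.6 to 17.0%). For lncRNA genes alone the share was 11.3% of the set (8.80 to 14.3%) and 10.8% of the TCF3-only peaks (9.43 to 12.4%). The highest-scoring members of this kind lay beside RHPN1-AS1 in RHPN1 (188), SPTBN1-AS1 in SPTBN1 (166), MAFG-AS1 in MAFG (163), LOC105376257 in DAB2IP (162) and LOC101928512 in CD247 (161). In SPTBN1, which encodes a spectrin of the membrane skeleton, the peak also covered an internal start of the gene 102 kb from its outer start.

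MicroRNA hairpins were overlapped by 3 of the 506 peaks (0.593%, 0.202 to 1.73%), against 1.29% of TCF3-only peaks deep inside genes (0.856 to 1.95%). The share was 4.0% of the shared ATOH8 peaks deep inside genes (1.57 to 9.84%). For the ATOH8-only peaks at gene ends it was 0.591% (0.358 to 0.972%). The interval of the set overlaps each of these. The mature forms of MIR4741 and MIR4519 are shown because their whole hairpin lay in a peak, and capitals mark the seed, bases 2 to 8. Sequences and positions are RefSeq on GRCh38.p14.

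hsa-miR-4741 (in RBBP8, chr18:22933407-22933429, plus strand): cGGGCUGUccggaggggucggcu
hsa-miR-4519 (in BCL7C, chr16:30875301-30875318, minus strand): cAGCAGUGcgcagggcug

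Their seeds differ. The peak in RBBP8, a DNA end resection gene, had a score of 129 and also overlapped an internal start of RBBP8 and the start of the antisense lncRNA RBBP8-AS1. The peak in BBC3, which encodes the apoptosis activator PUMA, had a score of 159 and covered only part of the overlapping hairpins of MIR3190 and MIR3191. The peak in BCL7C had a score of 68.

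Gene lists were then read against the 3.30% of long genes with a peak of the set. Of 699 listed genes longer than 10 kb, 52 held one (7.44%, 5.72 to 9.63%). The listed genes had a median length of 115 kb, and among all genes of 100 to 200 kb 5.01% held a peak. The counts below are descriptions, and gene length was not separated from them.

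WNT signalling had the highest share of the 20 lists, with 6 of 32 genes (18.8%, 8.89 to 35.3%), where TCF3-only peaks deep inside genes lay in 2. The list had a median length of 113 kb, and 13.5% of all genes of 100 to 200 kb held such a TCF3-only peak. BCL9L and BCL9, which encode coactivators of beta-catenin, held the highest peaks of the set, with scores of 356 and 165 in BCL9L and 186 in BCL9. AXIN1, the scaffold of the beta-catenin destruction complex, had a peak with score 111, and APC, the tumour suppressor of the same complex, had one with score 78. The nuclear factor gene TCF7L2 had one with score 73 and the coreceptor gene LRP5 one with score 54. Those in APC and TCF7L2 lay at internal starts, the first of them shown above with 3 E-boxes. This made 18.1 peaks per 10 Mb of deep territory in the list, against 4.69 in all genes longer than 10 kb. By that measure the ferroptosis suppressors came higher, at 25.1 per 10 Mb from 2 peaks. Their median length was 32.2 kb, and all genes of 10 to 50 kb held 13.5 per 10 Mb.

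Chromatin regulators held peaks in 7 of 64 genes (10.9%, 5.40 to 20.9%), among them the histone deacetylase gene HDAC4 (95 and 85) and the methylcytosine dioxygenase gene TET3 (66). Actin and myosin genes did so in 5 of 49 (10.2%, 4.44 to 21.8%), led by SPTBN1 (166), PLEC (130) and FLNA, which encodes filamin A (115). Integrin and matrix adhesion genes did so in 4 of 43 (9.30%, 3.68 to 21.6%), with the focal adhesion genes BCAR1 (156), PXN (100) and TNS3 (99) highest. Transcription factors with long genes did so in 6 of 72 (8.33%, 3.88 to 17.0%), among them NFIC (125), TP73 (103) and PRDM1 (93). TCF3-only peaks lay in 22 of the 72, where 13.5% of all genes of 100 to 200 kb and 27.2% of those over 200 kb held one. In these 4 lists and in the WNT list the lower bound of the interval was above 3.30%, with median gene lengths of 98.6 to 181 kb. Set against the 5.01% of genes of 100 to 200 kb, the lower bounds of the actin and myosin, integrin and transcription factor lists were not above. Per 10 Mb of deep territory the chromatin regulators had 8.90 peaks, the integrin genes 7.03, the actin and myosin genes 6.93 and the transcription factors 3.88. All long genes had 4.69, but density fell with gene length. It was 4.28 in genes of 100 to 200 kb and 2.05 in those over 200 kb, and the transcription factor list had a median of 181 kb.

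Ferroptosis suppressors, which protect membranes from lipid peroxidation, had them in 2 of 20 long genes (10.0%, 2.79 to 30.1%). The peak in SLC3A2, the heavy chain of the cystine importer, had a score of 107 and lay at an internal start 24.8 kb from the outer one. Another in TXNRD1, which encodes a thioredoxin reductase, had a score of 61. Among ferroptosis promoters 1 of 20 held one, NCOA4, the receptor for ferritin breakdown, with a score of 123, which made 12.4 per 10 Mb. The genes of that list had a median length of 29.2 kb, and all genes of 10 to 50 kb held 13.5 per 10 Mb. Fatty acid and sterol synthesis genes held them in 3 of 39 (7.69%, 2.65 to 20.3%), at the desaturase gene FADS2 (84), the squalene synthase gene FDFT1 (64) and the phosphatidate phosphatase gene LPIN2 (56). SCD, ATOH8 and TCF3 each had 1 ATOH8 peak in the gene body, and 0 of those 3 peaks met the rule.

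In the lists that follow, and in those of the paragraph above, the interval included 3.30%. That share is over all genes longer than 10 kb and is not matched to the gene lengths of a list. Receptor tyrosine kinases and adaptors held peaks in 3 of 45, EPHA2 (178), IRS1 (60) and RET (55), and MAPK and PI3K-AKT genes in 2 of 48, SGK1 (94) and RPS6KA2 (73). BMP and TGF-beta genes did so in 2 of 30, BMP7 (118) and SMAD3 (94), Hippo and YAP-TEAD genes in 2 of 26, AMOTL2 (69) and LATS1 (60), and bHLH and E protein genes in 2 of 24, NPAS3 (69) and MXI1 (57 and 52). In hypoxia response the count was 1 of 25, KDM4C (60), in adherens and cell junction genes 1 of 38, SHROOM3 (65), in mRNA splicing and translation 1 of 39, TNRC6C (88), and in large common fragile site genes 1 of 25, MACROD2 (72). TCF3-only peaks lay in 13 of those 25 fragile site genes and in 10 of the 38 junction genes. Those lists had median lengths of 1440 and 241 kb. Among all genes over 200 kb, 27.2% held a TCF3-only peak deep inside and 7.59% a peak of the set. Per 10 Mb the fragile site genes had 0.274 and the junction genes 0.565 peaks of the set, against 2.05 in genes over 200 kb. Epithelial-mesenchymal transition and prostate luminal and basal genes had none among 18 long genes each, which allows a share of up to 17.6% by the Wilson interval.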

How the data were processed

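Peak lists were analysed for the 2 immunoprecipitations. Each list gives a chromosome, start, end and score per peak. The score is the authors' deposited value. What the score measures, which program called the peaks and whether the input entered the call are points not given in the sources used here. Per the submitters' processing notes the build is hg38.

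Gene extents and start windows came from RefSeq on GRCh38.p14, whose primary chromosomes have the coordinates of hg38. A start window runs from 250 bases before an annotated start to 50 after it, and a gene can have several. Among 19974 protein-coding genes, 15812 had at least 1 window. Distances were taken from the peak midpoint, and overlap meant at least 1 bp. Deep territory means all bases inside a protein-coding gene and more than 5 kb from every end of such a gene. Genes longer than 10 kb are those that can hold such a base.

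Shares have Wilson 95% intervals, which cover the counting of peaks, genes or windows only. Read depth is unknown. With 1 library per factor, no test between groups was made. The planned motif search within peaks needs genome sequence and was not run. Motifs were searched in start windows instead, a choice made after seeing the data. The peak class, the gene lists and the rule for named genes were chosen with earlier results of these data known. Named are the hosts of the 15 highest peaks, hosts of 3 or more peaks, the highest hosts per list, and the peaks nearest to each threshold. Further genes at internal starts were named after their values were seen. A gene list and a host gene that the naming rule covers are not reported here. The location rules were tested on simulated peaks. Computations used Python 3.11.15 with numpy 2.4.6, pandas 2.3.3, scipy 1.17.1 and matplotlib 3.10.9.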

Additional observations from a re-analysis of the deposited data

How the results depend on the processing

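Of 72 values under 9 alternatives, 66 stayed within 1.5 times (counts) or within the 95% interval (shares and medians). These covered a reciprocal overlap of 50%, no TCF3 peak within 1 kb, gene-end distances of 2 and 10 kb, leaving out the top 1% of scores and starts read as 0-based. Distance from the peak edge, and all values on internal starts, were added after seeing the data. With ATOH8 peaks above the list median by score alone there were 222 peaks in 213 genes, 25 of them listed, with a median width of 756 bp, and 49.2% overlapped an internal start. With a 5 kb window, 27.7% of peaks lay near an end of a non-coding gene. No paired analysis was possible because each group has 1 library, and no replicate could be left out. The read depth and the calling threshold are unknown, so absence of a peak does not show absence of binding.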
